A study of Mus musculus with 20 samples.

Results

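The brush border digestive enzymes are membrane-anchored hydrolases that face the gut lumen and finish the digestion of sugars, peptides, and phosphate esters. The set described here has 10 genes that were chosen by their symbols. It holds 4 disaccharidases (Lct, Sis, Mgam, and Treh), 4 peptidases (Anpep, Dpp4, Enpep, and Mep1a), and 2 alkaline phosphatases (Alpi and Akp3). All 10 were found among the 55401 genes of the count table. Their mRNA was measured in the heart, kidney, spleen, liver, and small intestine of 8-week-old female WT and Nsun6-KO mice, with 2 libraries for each tissue and genotype and 20 in all. The KO mice lack exons 3 and 4 of Nsun6 in every cell, after Cas9 editing of C57BL/6J zygotes, and were bred to homozygosity. Neither genotype was treated. The sources used here do not state whether the tissues that share a replicate number came from the same mouse, how many founder lines were used, or which stretch of the small intestine was taken. The libraries hold between 15897446 and 44508197 counts. Those of the small intestine hold 32121286 (WT replicate 1), 28391003 (WT replicate 2), 27240407 (KO replicate 1), and 26414043 (KO replicate 2) counts.

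A mature enterocyte carries a dense field of microvilli on its apical side, and these enzymes sit in its membrane with their catalytic domains in the lumen. They act beside the transporters that take up the monosaccharides, amino acids, and small peptides they release. The gut is not uniform along its length. In textbook accounts, lactase and the intestinal phosphatases are strongest in the proximal part, whereas bile acid uptake is a task of the ileum. The proximal tubule of the kidney has a brush border too, where peptidases break down filtered peptides. Levels below are TPM, in which counts are divided by the exon length of the gene and scaled to the same total in each library, so that genes can be compared within a library. A gene is called changed where it differed more than 2-fold and its adjusted p in the edgeR quasi-likelihood test (Benjamini-Hochberg method) was below 0.1. Log2 fold changes are given with their standard error (SE).

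The labels name the libraries of the small intestine by genotype and replicate number only, and the libraries with the same number resembled each other. Across genes, log2 CPM (counts scaled to the library size) correlated at a Pearson r of 0.948 between the replicate 1 libraries and 0.970 between the replicate 2 libraries, and at 0.922 to 0.930 between libraries of different number. Fabp6, the bile acid binding protein of ileal enterocytes, was at 39680 and 37790 TPM in replicate 1 of WT and KO, and at 1.08 and 2.01 TPM in replicate 2. Pdx1, a transcription factor of the duodenum and pancreas, had 0 counts in both replicate 1 libraries, and was at 94.3 and 70.5 TPM in replicate 2 of WT and KO. Of the 10 listed genes of the proximal small intestine, 9 were called higher in the replicate 2 libraries and none was called lower. Of the 11 listed genes of the distal small intestine, 9 were called lower in these and none was called higher. Thus the replicate number and the position markers move together in both genotypes, and cannot be told apart with these 4 libraries. The enterocyte marker Vil1, which bundles the actin core of the microvillus, was between 1009 and 1488 TPM in all 4 libraries. The 9 enterocyte markers in the table summed to between 39250 and 51100 TPM, led by Reg3g in WT replicate 1 and by Fabp2 in the others. Single markers moved both ways, as 2 of the 9 were called higher in the replicate 2 libraries and 1 was called lower.

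Some libraries stood apart in other ways. The small intestine library of KO replicate 1 held 497.4 TPM of the 7 cardiomyocyte markers, led by Myl2 at 252.1 TPM, whereas their sum in the other 3 was between 6.27 and 12.02 TPM. The 9 smooth muscle markers summed to 2844 TPM in KO replicate 1 and 1215 TPM in KO replicate 2, as compared to 297.5 and 379.8 TPM in WT. The kidney library of WT replicate 2 correlated with the other kidney libraries at a Pearson r between 0.937 and 0.959 across genes, whereas the other 3 correlated with each other at 0.975 or above. Its level of Slc5a2, the glucose transporter of the early proximal tubule, was 34.9 TPM as compared to 247.2 or more in the others. The spleen library of WT replicate 2 held 5811 TPM of the 7 hepatocyte markers, led by Alb at 4498 TPM, whereas their sum in the other 3 spleen libraries was between 19.69 and 279.0 TPM. This library also had the highest level of Mgam in the spleen, at 0.890 TPM as compared to 0.129 to 0.320 TPM. Without it, no member gained or lost a call in the comparisons with the liver, spleen, and heart. The part of these differences in the results below was not tested. As Nsun6 was counted over all its exons, its level does not check the deletion. It was at 5.48 and 2.70 TPM in WT and at 5.59 and 2.44 TPM in KO small intestine, and at 4.08 and 2.57 TPM in WT and 2.26 and 1.90 TPM in KO kidney.

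All 10 enzymes were called higher in the small intestine than in the liver, spleen, and heart, where 24.6% of 23159 genes tested were called higher. For Lct and Akp3 this rests on the replicate 2 libraries of the gut. In replicate 1 of WT and KO, Lct had 1 and 4 counts and Akp3 had 2 and 0 counts. In the libraries of the liver, spleen, and heart, Lct had 0 to 12 counts and Akp3 had 0 to 37 counts. Without WT replicate 2 or without KO replicate 2 of the small intestine, 8 were called higher. As these are whole pieces of tissue, differences between tissues in the number of cells of a type and in the mRNA per cell cannot be told apart. Summed, the 10 genes took 1.23% to 1.97% of all counts of a small intestine library, 0.111% to 0.214% in the kidney, and at most 0.0529% elsewhere. Averaged over the 4 intestinal libraries, Alpi stood first at 2310 TPM ± 2217 (SD, n = 4), followed by Sis (1448 ± 452.1), Anpep (1355 ± 881.1), Akp3 (1058 ± 1316), Enpep (998.2 ± 808.4), Mgam (673.2 ± 332.3), Dpp4 (598.7 ± 456.2), Mep1a (470.0 ± 526.5), Treh (279.5 ± 225.0), and Lct (230.2 ± 324.4). The ranges of the 4 libraries of each pair of neighbours in this order overlap, and the order differed between libraries. Sis, which splits sucrose and short starch chains, had the smallest spread relative to its mean, whereas Lct and Akp3 were nearly absent from the replicate 1 libraries. Vil1 was not lower in these libraries in TPM, at 1082 and 1488 TPM in replicate 1 and at 1009 and 1113 TPM in replicate 2 of WT and KO.

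Outside the gut and kidney, Dpp4, Enpep, and Anpep were above 1 TPM in every library, and Mgam was so in every liver library. The other members averaged below 1 TPM in each of the liver, spleen, and heart. Dpp4, which removes dipeptides from the end of peptides and is also a T cell surface protein, was at 72.4 to 92.2 TPM in the liver, 46.3 to 70.2 TPM in the spleen, and 2.75 to 6.09 TPM in the heart. Enpep, which removes acidic residues and degrades angiotensin II, was at 42.3 to 64.6 TPM in the liver and at 3.05 to 3.46 TPM in the spleen. Anpep, the neutral aminopeptidase, was between 4.75 and 28.9 TPM in these 3 tissues. Mgam, which frees glucose from the ends of starch fragments, was at 18.1 to 33.8 TPM in the liver and below 1 TPM in the spleen and heart. Lct had 0 counts in all 4 liver libraries, and Akp3 had 0 counts in all 4 spleen libraries. A count of 0 allows up to 3 counts, or 0.0375 TPM of Lct in the liver and 0.146 TPM of Akp3 in the spleen, for counting error only.

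**Figure D1:**
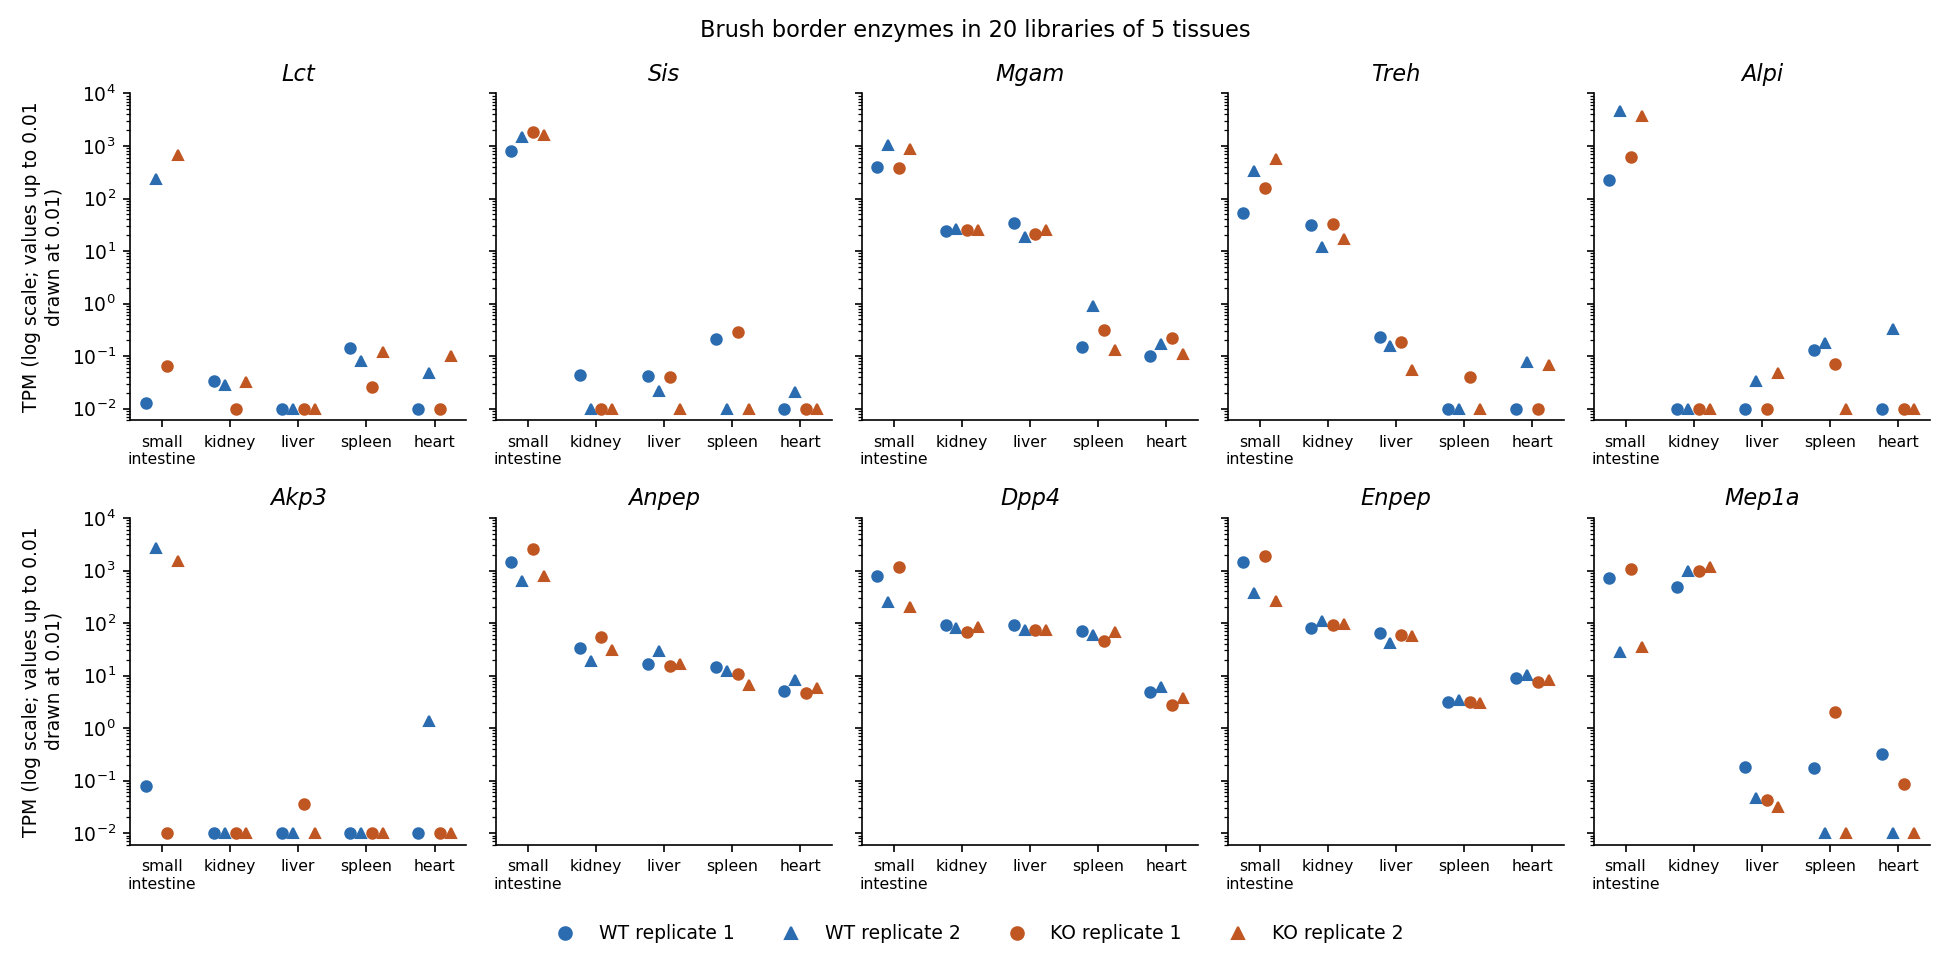
TPM (log scale) of each enzyme in the 20 libraries, by tissue, with colour for the genotype and shape for the replicate number, and values up to 0.01 drawn at 0.01. In the small intestine, Lct and Akp3 are near the floor in replicate 1 and between 232.7 and 2717 TPM in replicate 2, and Mep1a is as high in the kidney as in the replicate 1 libraries of the gut.

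The 250 bases before the RefSeq start of 5 of the genes are shown. Sis, Lct, Alpi, and Akp3 had at most 3 counts in any kidney library, and Mgam, the fifth, was also measured in the kidney and liver. The sequences lie at chr3:72967864-72968113 (Sis, minus strand), chr1:128328319-128328568 (Lct, minus strand), chr1:87101607-87101856 (Alpi, minus strand), chr1:87124704-87124953 (Akp3, plus strand), and chr6:40628581-40628830 (Mgam, plus strand) of GRCm38.p6, and are printed 5′ to 3′ on the strand of the gene. Capitals mark 2 motifs, on either strand. The first is TTTAT, the core letters of CDX sites. The second is AGATAA, a site of GATA factors. Adjoining or overlapping matches run together as one stretch of capitals.
Sis: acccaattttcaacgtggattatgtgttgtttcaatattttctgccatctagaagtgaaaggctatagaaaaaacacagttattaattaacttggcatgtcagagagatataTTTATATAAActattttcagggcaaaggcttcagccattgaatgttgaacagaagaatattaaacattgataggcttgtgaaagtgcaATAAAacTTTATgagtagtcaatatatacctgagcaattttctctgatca
Lct: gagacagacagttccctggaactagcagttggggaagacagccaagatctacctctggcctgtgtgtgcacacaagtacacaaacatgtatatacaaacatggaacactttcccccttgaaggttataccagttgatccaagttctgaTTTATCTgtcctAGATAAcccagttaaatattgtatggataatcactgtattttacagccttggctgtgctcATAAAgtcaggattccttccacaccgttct
Alpi: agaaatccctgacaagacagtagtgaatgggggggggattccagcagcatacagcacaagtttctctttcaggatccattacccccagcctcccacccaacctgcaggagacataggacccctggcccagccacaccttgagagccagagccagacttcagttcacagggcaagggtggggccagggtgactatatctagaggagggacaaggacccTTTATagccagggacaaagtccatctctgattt
Akp3: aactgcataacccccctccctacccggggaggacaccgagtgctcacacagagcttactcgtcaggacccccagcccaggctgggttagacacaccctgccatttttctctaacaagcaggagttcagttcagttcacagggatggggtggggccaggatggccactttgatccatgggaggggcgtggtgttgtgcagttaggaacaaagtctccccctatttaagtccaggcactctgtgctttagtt
Mgam: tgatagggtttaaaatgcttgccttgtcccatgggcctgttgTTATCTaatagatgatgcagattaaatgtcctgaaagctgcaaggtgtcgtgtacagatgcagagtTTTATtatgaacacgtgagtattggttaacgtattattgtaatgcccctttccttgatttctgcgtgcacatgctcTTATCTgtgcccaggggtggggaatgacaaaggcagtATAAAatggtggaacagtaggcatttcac
CDX and GATA proteins are transcription factors of the intestinal epithelium. All 10 members matched a RefSeq promoter. TTTAT was found in 6 of the 10 (Lct, Sis, Mgam, Dpp4, Alpi, and Enpep) and in 37.26% of all 32851 promoters of the same length. AGATAA was found in 3 of the 10 (Lct, Mgam, and Dpp4) and in 9.99% of all. Sis holds TTTAT at 4 positions, and Lct and Mgam each hold TTTAT and AGATAA at 2 positions. TTTAT read on the other strand lies inside the TATA box TATAAA, which 12.37% of all promoters and 5 of the 10 members (Sis, Mgam, Dpp4, Alpi, and Enpep) hold. In these 5 genes at least 1 match of TTTAT, as in Alpi at bases -33 to -29, is therefore shared with that motif. The bases shown for Akp3 hold neither motif. A match describes letters only. For Akp3 and Enpep, the bases after the RefSeq start were not found in the GENCODE transcripts of the gene.

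The split of the intestinal libraries by replicate number separated the enzymes by class. In replicate 2 as compared to replicate 1, both phosphatases and 3 of the 4 disaccharidases were higher and 3 of the 4 peptidases were lower. In all, 5 members were called higher, where 5.04% of 17680 genes tested were, and 3 were called lower, where 3.56% were. Peptidases made up 74.7% and 68.9% of the summed TPM of the 10 enzymes in replicate 1 of WT and KO, and 10.9% and 12.5% in replicate 2. Phosphatases made up 3.80% and 6.43% in replicate 1, and 62.9% and 50.9% in replicate 2. The share of the disaccharidases was between 21.5% and 36.6%. The genotypes shared these directions in each class.

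**Figure D2:**
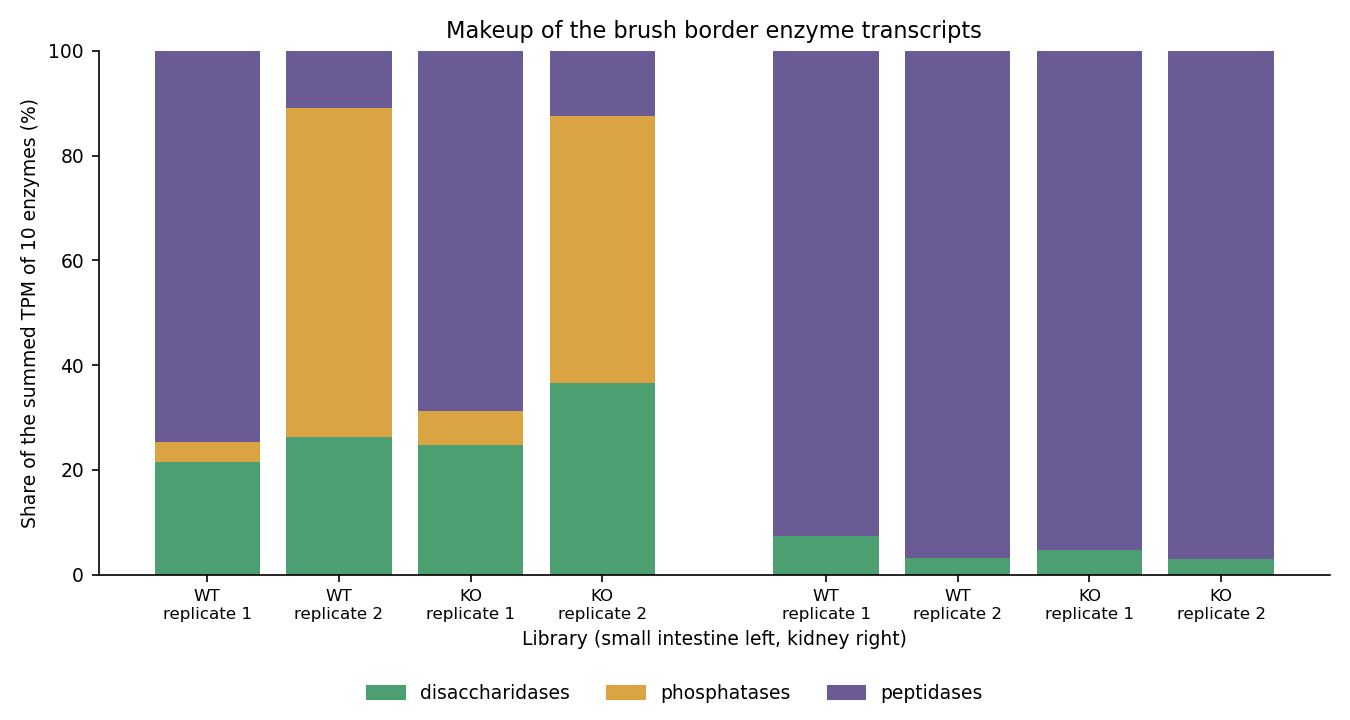
Share (%) of each enzyme class in the summed TPM of the 10 enzymes, 1 bar per library of the small intestine (left) and kidney (right). Peptidases take 74.7% and 68.9% in the replicate 1 libraries of the small intestine, 10.9% and 12.5% in replicate 2, and 92.7% to 97.0% in the kidney.

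Both phosphatases, which remove phosphate groups from lipids, nucleotides, and bacterial lipopolysaccharide, were called higher in replicate 2. Alpi was at 224.9 TPM in WT replicate 1, 4672 in WT replicate 2, 626.5 in KO replicate 1, and 3718 in KO replicate 2. Both replicate 2 libraries are above both replicate 1 libraries, with a log2 fold change of 3.69 (SE 0.56, edgeR adjusted p = 0.0323). Akp3, known as the duodenal alkaline phosphatase of the mouse, had 2 counts in WT replicate 1 and 0 in KO replicate 1, and 65906 and 33013 counts in replicate 2 of WT and KO, or 2717 and 1514 TPM (edgeR adjusted p = 0.00383). Alpi and Akp3 lie 23366 bases apart on chromosome 1 of GRCm38, with Alpi from 87098002 to 87101606 on the minus strand and Akp3 from 87124973 to 87127912 on the plus strand. Their transcripts share no stretch of 100 bases. Alpi was present in replicate 1, whereas its neighbour had at most 2 counts. The third gene of the family, Alppl2, was at 1.01 and 2.18 TPM in replicate 1 and at 6.29 and 3.41 TPM in replicate 2 of WT and KO. It was higher in both replicate 2 libraries, but its log2 fold change of 1.997 (SE 0.65) did not pass the test (edgeR adjusted p = 0.1604). Alpl, the form of bone, liver, and kidney, was at most at 0.181 TPM in the gut.

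Among the disaccharidases, Lct, the lactase that splits milk sugar, had 1 count in WT replicate 1 and 4 counts in KO replicate 1, as compared to 17221 and 45793 counts (232.7 and 688.1 TPM) in replicate 2 of WT and KO (edgeR adjusted p = 0.00727). Treh, which splits trehalose, the sugar of fungi and insects, was at 52.5 and 341.6 TPM in WT replicates 1 and 2 and at 158.4 and 565.5 TPM in KO replicates 1 and 2. Its log2 fold change was 2.47 (SE 0.56, edgeR adjusted p = 0.0879). Treh shares exon bases with Phldb1 on the other strand, and the stored counting command sets no strand. The gene of origin of reads from the shared bases can therefore not be told. Mgam was at 404.0 and 1031 TPM in WT and 377.2 and 880.8 TPM in KO, with a log2 fold change of 1.65 (SE 0.29, edgeR adjusted p = 0.0448). Sis was at 816.1 and 1473 TPM in WT and at 1871 and 1633 TPM in KO. Its groups by replicate number overlap, and its log2 fold change of 0.58 (SE 0.42) did not pass the test (edgeR adjusted p = 0.485). Hence the enzymes for lactose, trehalose, and starch ends differed between the replicate numbers, whereas for sucrase-isomaltase no difference was detected.

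The peptidases ran the other way. Mep1a, the alpha subunit of meprin, a metalloprotease, was at 730.6 and 1086 TPM in replicate 1 of WT and KO and at 27.8 and 35.7 TPM in replicate 2, with a log2 fold change of -4.48 (SE 0.30, edgeR adjusted p = 0.00591). Replicate 1 was 26.3 times replicate 2 in WT and 30.4 times in KO. Mep1b, the beta subunit that anchors the enzyme in the membrane, was at 2445 and 2202 TPM in replicate 1 and at 1065 and 904.3 TPM in replicate 2. Its log2 fold change of -0.88 (SE 0.27) did not pass the test (edgeR adjusted p = 0.149). The alpha and beta subunits therefore stood in different proportions, since the alpha subunit was lower than the beta subunit in all 4 libraries and by a far wider margin in replicate 2. Enpep was at 1461 and 1899 TPM in replicate 1 and at 368.0 and 264.8 TPM in replicate 2, with a log2 fold change of -2.04 (SE 0.32, edgeR adjusted p = 0.0336). Dpp4 was at 799.5 and 1148 TPM in replicate 1 and 246.1 and 201.1 TPM in replicate 2, with a log2 fold change of -1.75 (SE 0.30, edgeR adjusted p = 0.0404). Dpp4 shares exon bases with Gm13561 on the other strand. Anpep was at 1425 and 2573 TPM in replicate 1 and at 641.9 and 778.8 TPM in replicate 2. The 2 groups of Anpep do not overlap, but its log2 fold change of -1.13 (SE 0.34) did not pass (edgeR adjusted p = 0.1395).

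**Figure D3:**
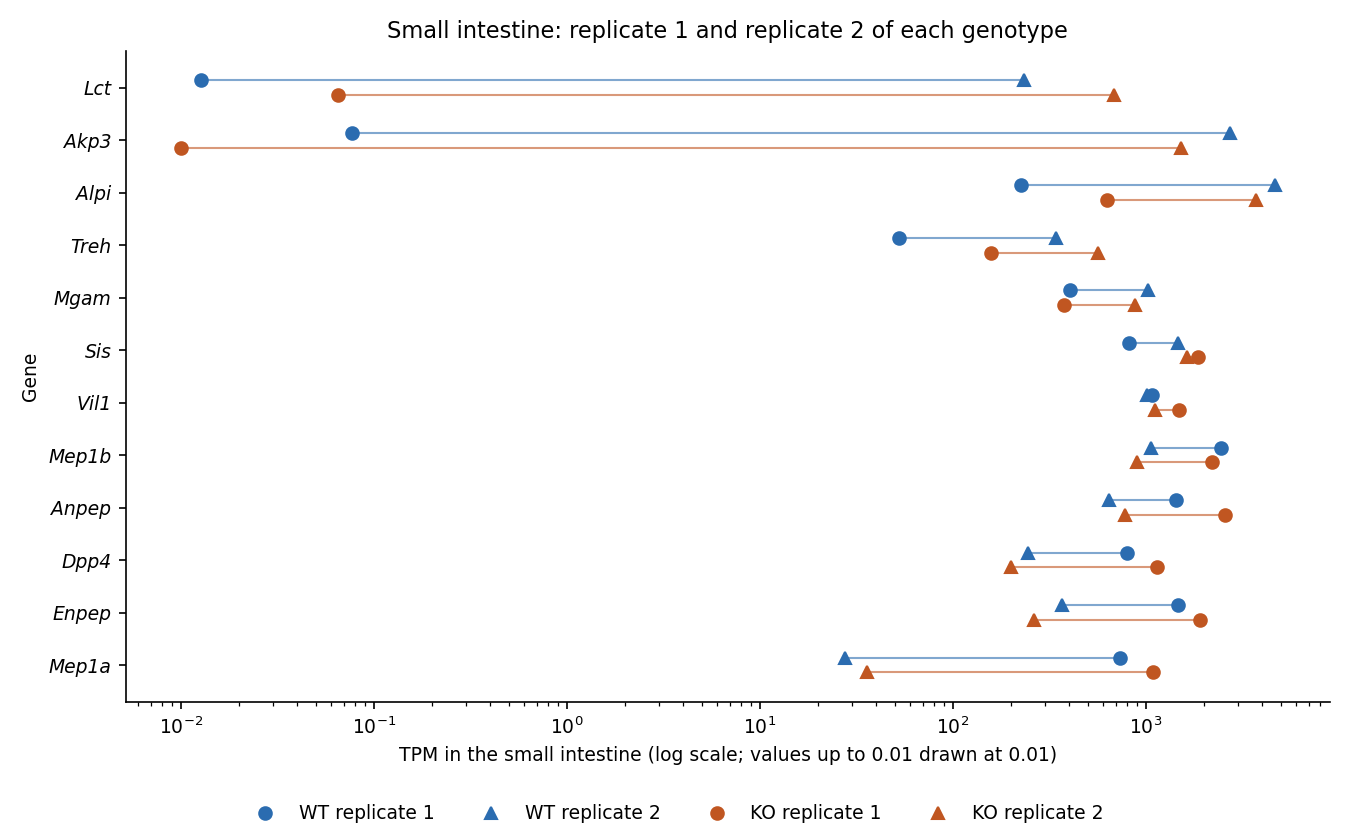
TPM (log scale) of the 10 enzymes, Mep1b, and Vil1 in the 4 libraries of the small intestine, with a line from replicate 1 to replicate 2 of each genotype and values up to 0.01 drawn at 0.01. The lines run to higher values in replicate 2 for Lct, Akp3, Alpi, Treh, and Mgam in both genotypes, to lower values for the 4 peptidases and Mep1b, and are short for Vil1 and for Sis in KO.

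The calls by replicate number rest on 2 libraries on each side. With 1 library left out, a side holds a lone library, which the fit assumes to vary like the other side. Calls gained or lost in such a fit therefore rest on the spread of the other side. Without WT replicate 2 or without KO replicate 2, 2 members were called higher and 1 lower, and Alpi, Treh, Mgam, Enpep, and Dpp4 lost their calls, although each kept its direction when any 1 library was left out. Without KO replicate 1, the library with the muscle markers, 6 members were called higher and 3 lower, with Sis added at a log2 fold change of 1.23. Without WT replicate 1, Anpep was called lower too, at -1.44.

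Other genes of the brush border gave a mixed picture in the same comparison. Of the 20 microvillus structure genes, all tested, none was called higher and 1 was called lower, with a median log2 fold change of -0.10 as compared to -0.05 over all genes tested. The gene called lower was Tmigd1, an adhesion molecule of enterocytes, at 4945 and 7782 TPM in replicate 1 and at 5.79 and 7.02 TPM in replicate 2 of WT and KO. Vil1 had a log2 fold change of 0.08 (SE 0.26, edgeR adjusted p = 0.891). Of the 19 other brush border and apical hydrolases tested, 4 were called higher and 4 lower, with a median of -0.10. Tmprss15, the enteropeptidase that activates trypsinogen, had 2 and 0 counts in replicate 1 and 20812 and 12175 counts in replicate 2 of WT and KO. Enpp3 was called higher too, and Naaladl1, an ileal aminopeptidase, was called lower, at 1857 and 2998 TPM in replicate 1 and at 53.3 and 100.4 TPM in replicate 2. Plb1, among the 2 lowest of this list, was below 1 TPM in all 4 libraries and did not pass.

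Of the 15 transporters tested, 4 were called higher and 3 lower. Slc2a2, the basolateral glucose and fructose carrier, was at 2.66 and 12.7 TPM in replicate 1 and at 511.5 and 567.5 TPM in replicate 2. Slc1a1, which takes up glutamate and aspartate, was at 49.96 and 88.9 TPM in replicate 1 and at 2.98 and 3.15 TPM in replicate 2. Slc3a1, the heavy chain of the cystine and basic amino acid carrier, was called lower with a log2 fold change of -1.44 (SE 0.23, edgeR adjusted p = 0.0341). Slc2a5, the fructose carrier, did not pass (log2 fold change 3.78, SE 0.94, edgeR adjusted p = 0.109). Of the 14 transcription factors tested, 3 were called higher and 3 lower. Gata4 was at 0.519 and 1.37 TPM in replicate 1 and at 58.0 and 49.1 TPM in replicate 2, and was called higher, as was Onecut2. Cdx1 and Maf were the lowest of the list and were called lower. Cdx2, which sets intestinal identity, was at 151.9 and 210.8 TPM in replicate 1 and at 66.5 and 73.3 TPM in replicate 2 (log2 fold change -1.01, SE 0.20, edgeR adjusted p = 0.0552). Beside these, 6 of the 12 goblet and Paneth cell markers were called lower in replicate 2, and their summed level was 41040 and 30660 TPM in replicate 1 and 15390 and 13560 TPM in replicate 2, led by Spink4 in KO replicate 1 and by Zg16 in the other 3 libraries. The part of these cells in the results for the enzymes was not tested.

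The kidney used some of the enzymes and not others. As compared to the small intestine, 9 of the 10 were called lower in the kidney, where 23.2% of 23159 genes tested were, and the other, Mep1a, was not called. None was called higher, where 22.6% were. Without WT replicate 2 or without KO replicate 2 of the small intestine, 7 were called lower, and without either WT kidney library 8 were. The median log2 fold change of the 10 was -5.21, as compared to 0.00 over all genes tested. Peptidases made up 92.7% to 97.0% of the summed TPM of the enzymes in a kidney library, and Mep1a alone 65.2% to 82.2%. The sum was 748.9 to 1409 TPM in the kidney and 5914 to 11750 TPM in the small intestine. The proximal tubule markers summed to 7626 to 12620 TPM in the kidney libraries, led by Miox, a tubular enzyme of inositol breakdown.

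Of the 6 members present in the kidney, Mep1a was the one whose level there reached that in the gut. It was at 488.4 and 998.2 TPM in WT kidney and at 977.4 and 1158 TPM in KO kidney. These values overlap those of the replicate 1 libraries of the small intestine (730.6 and 1086 TPM) and are above both replicate 2 libraries (27.8 and 35.7 TPM). The log2 fold change of kidney against small intestine was 1.004 (SE 1.19, edgeR adjusted p = 0.521). Against the replicate 1 libraries only it was 0.03, and against the replicate 2 libraries only it was 4.56, which passed the test. With no filter on low counts it was 1.04 and passed as well. Mep1b was at 123.3 and 224.5 TPM in WT kidney and at 201.5 and 264.8 TPM in KO kidney, lower than in the gut (log2 fold change -3.08, SE 0.96, edgeR adjusted p = 0.0190). Hence the alpha subunit exceeded the beta subunit in all 4 kidney libraries, and the beta subunit exceeded the alpha subunit in all 4 libraries of the gut.

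The other peptidases were present in the kidney at lower levels. Dpp4 was at 92.5 and 80.7 TPM in WT and 68.6 and 82.3 TPM in KO kidney, and Enpep at 80.5 and 110.1 TPM in WT and 91.4 and 96.5 TPM in KO. Their log2 fold changes against the small intestine were -2.96 (SE 0.41) and -3.42 (SE 0.49). For both, every kidney library is below every gut library. Anpep was at 32.9 and 19.02 TPM in WT and 53.8 and 30.5 TPM in KO, with the largest fall among the peptidases (log2 fold change -5.46, SE 0.42, edgeR adjusted p = 1.94e-07). Relative to Vil1, which was at 56.5 to 78.2 TPM in the kidney, Enpep was at 1.17 to 1.95 times its level, Dpp4 at 0.877 to 1.43 times, and Anpep at 0.337 to 0.688 times. In the small intestine these ratios were 0.238 to 1.35 for Enpep, 0.181 to 0.772 for Dpp4, and 0.636 to 1.73 for Anpep. Relative to Vil1, Dpp4 was thus higher in every kidney library than in every gut library. The ranges of Enpep and of Anpep overlap.

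Of the disaccharidases, Mgam and Treh were measured in the kidney and Lct and Sis were at the floor. Mgam was between 23.6 and 26.8 TPM in the 4 libraries, with a log2 fold change against the small intestine of -4.96 (SE 0.64). In TPM, this range was the narrowest relative to its level among the 6 members present there. On the CPM scale of the test it was not, with Mgam at 77.77 to 150.5 and Dpp4 at 151.4 to 237. Treh was at 31.0 and 11.7 TPM in WT and at 32.5 and 16.8 TPM in KO, with a log2 fold change of -3.91 (SE 0.65). The lowest gut library of Treh, WT replicate 1 at 52.5 TPM, was above the highest kidney library. Lct had 6 counts in total and Sis 3 in the 4 kidney libraries. Alpi and Akp3 had 0 counts in all 4, which allows up to 0.139 and 0.155 TPM. Every gut library is above this for Alpi, whereas for Akp3 the replicate 1 libraries of the gut, with 2 and 0 counts, are not, nor was Lct above the level of 3 counts in WT replicate 1.

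The phosphatase of the kidney was another member of the family. Alpl, the tissue-nonspecific alkaline phosphatase, was at 147.2 and 78.2 TPM in WT and at 177.0 and 103.3 TPM in KO kidney, and Alppl2 had 0 counts there. The log2 fold change of Alpl against the small intestine was 10.45 (SE 0.64, edgeR adjusted p = 2.51e-08). Each tissue therefore held a phosphatase, and the genes were not the same.

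Set against the liver, spleen, and heart, 6 of the 10 enzymes were higher in the kidney, where 20.5% of genes tested were called higher. These were Mep1a (log2 fold change 12.82, SE 1.19), Treh (8.63, SE 0.61), Mgam (4.36, SE 0.41), Enpep (2.87, SE 0.33), Dpp4 (1.38, SE 0.29), and Anpep (1.38, SE 0.27). For Mgam, the kidney values of 23.6 to 26.8 TPM lie within the liver values of 18.1 to 33.8 TPM, and for Dpp4 and Anpep the kidney and liver ranges overlap as well. With the WT libraries only, Anpep had a log2 fold change of 0.81 and was not called. Lct, Sis, Alpi, and Akp3 were not called. They had at most 3 counts in any kidney library and at most 37 in any library of the liver, spleen, and heart. The SE was 6686 for Sis, 9979 for Alpi, and 19530 for Akp3. For these genes the test cannot tell a difference from none. This comparison and that of the small intestine share the liver, spleen, and heart libraries. Of the other lists, 13 of the 20 other hydrolases, 18 of the 20 microvillus genes, and all 16 transporters were higher in the kidney than in the 3 tissues, with medians of 3.17, 4.61, and 7.22. Against the small intestine, 14 of the 20 other hydrolases and 18 of the 20 microvillus genes were lower in the kidney and 1 of each was higher. The higher ones were Folh1, a glutamate carboxypeptidase, at 188.5 to 264.4 TPM in the kidney and at most 0.0758 TPM in the gut, and Pdzk1, a scaffold of apical transporters. Of the transporters 6 were lower, with Slc15a1, the peptide carrier, and Slc5a1, the glucose carrier of the gut, at the low end, and 3 were higher, with Slc5a2 and Slc6a20b at the high end. Of the transcription factors, Cdx2 had 0 counts in all 4 kidney libraries.

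The comparison of KO with WT asked whether loss of the RNA methyltransferase Nsun6 changed the enzymes. No member was called in the small intestine, where all 10 were tested and 0% of 17680 genes were called, or in the kidney, where 6 were tested and 0% of 17550 genes were called. No member had an unadjusted edgeR p under 0.05 in either tissue, while 422 and 112 genes had. With DESeq2, 51 genes and none were called in these tissues, with no member among them. The members had a median log2 fold change of 0.33 in the gut, as compared to 0.00 over all genes tested there, and of 0.10 in the kidney, as compared to -0.03.

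In the small intestine the difference between the replicate numbers lies inside each genotype, and the errors of the genotype effect were accordingly wide. The biological coefficient of variation, the typical spread between libraries of a group relative to the mean, was 0.602 in this fit and 0.457 in that of the kidney. Within a replicate number, the KO to WT ratio of TPM for Treh was 3.01 in replicate 1 and 1.66 in replicate 2, and for Anpep 1.81 and 1.21. For Sis it was 2.29 and 1.11. Each of these 3 was above 1 in both, as was Mep1a at 1.49 and 1.29. Mgam was below 1 in both, at 0.934 and 0.854. Alpi (2.79 and 0.796), Dpp4 (1.44 and 0.817), and Enpep (1.30 and 0.720) were above 1 in replicate 1 and below 1 in replicate 2. In replicate 2, the KO to WT ratio was 2.96 for Lct and 0.557 for Akp3, genes with at most 4 counts in replicate 1. Within each number there is 1 library per genotype, so these ratios have no replicate check.

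The fitted log2 fold changes in the small intestine lay between -0.96 (SE 4.19) for Akp3 and 1.45 (SE 3.95) for Lct, each with an edgeR adjusted p of 0.9999. Sis had 0.44 (SE 0.71), Anpep 0.55 (SE 0.73), Treh 0.73 (SE 1.23), and Mgam -0.31 (SE 0.94). Each of these values took both signs over the fits with a library left out in turn. The KO libraries are those with more of the smooth muscle markers, of which all 9 had a positive log2 fold change and an unadjusted edgeR p under 0.05, with a median of 2.13 and none called. Vil1 had a log2 fold change of 0.18 (SE 0.49). The part of muscle in the values of the enzymes was not tested.

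In the kidney the errors were smaller. The log2 fold change was 0.72 (SE 0.37) for Anpep, 0.33 (SE 0.67) for Mep1a, 0.30 (SE 0.49) for Treh, -0.09 (SE 0.39) for Mgam, -0.15 (SE 0.46) for Enpep, and -0.25 (SE 0.35) for Dpp4. Anpep was at 32.9 and 19.02 TPM in WT replicates 1 and 2 and at 53.8 and 30.5 TPM in KO replicates 1 and 2. Its groups overlap in TPM, as KO replicate 2 was below WT replicate 1. The KO to WT ratios within the replicate numbers, 1.64 and 1.60, rest on a match that the labels do not give as a pairing. On the CPM scale of the test, after TMM, it was at 37.1 and 36.5 in WT and at 77.7 and 44.1 in KO, which do not overlap. In TPM, 21.2% of all 17550 genes tested in the kidney had groups that do not overlap. This share was not computed on the CPM scale. Without WT replicate 2, the kidney library that stood apart, the log2 fold change of Mep1a was 1.49, and without WT replicate 1 it was -0.29. No call is read from these fits, as the lone WT library is assumed to vary like the KO libraries. Thus the 2 WT libraries set the value for Mep1a.

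**Figure D4:**
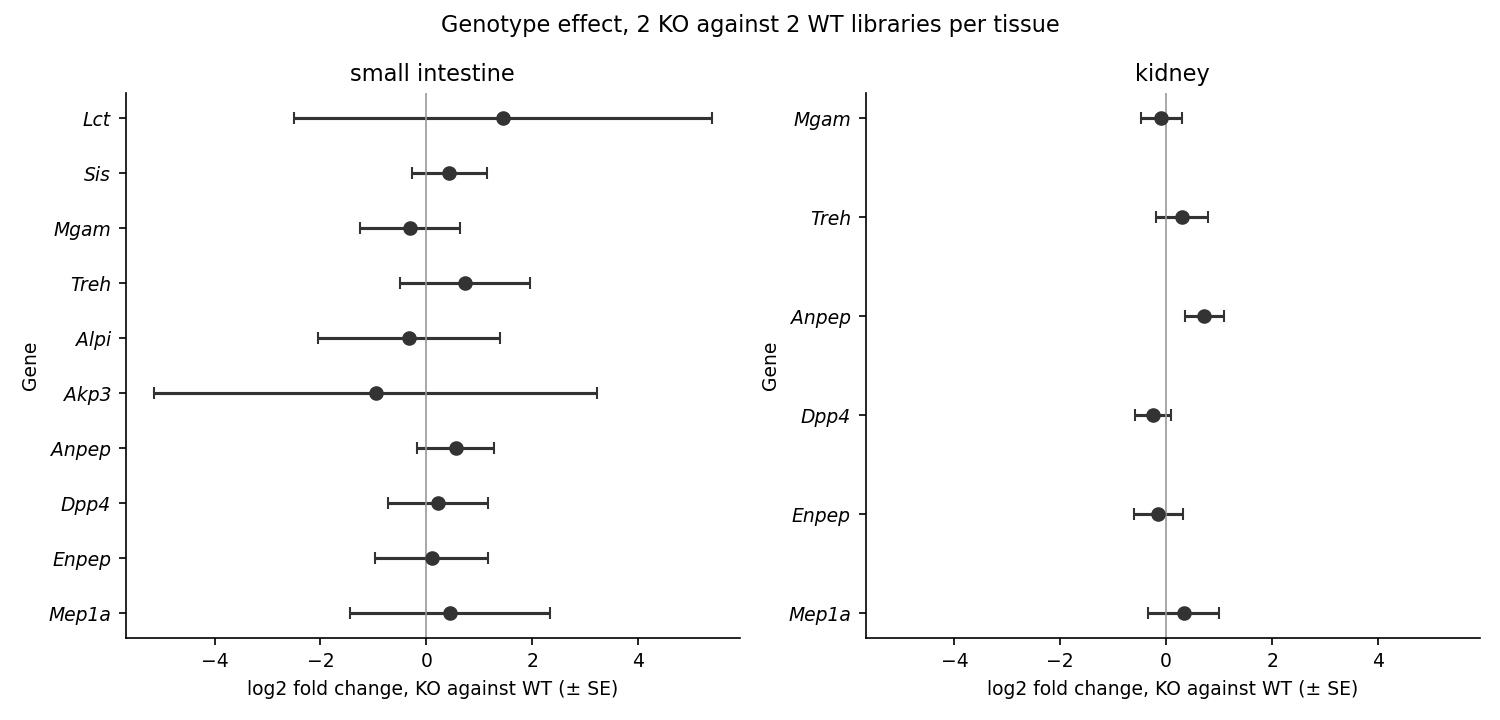
Log2 fold change of KO against WT with its SE for the enzymes tested in the small intestine (left, 10 genes) and kidney (right, 6 genes), 2 libraries per genotype and tissue. The bars are wide in the small intestine, up to 4.19 for Akp3, and narrow in the kidney, where Anpep stands at 0.72 and no gene passed the test.

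In the liver 4, in the spleen 5, and in the heart 4 members passed the filter on low counts, and none was called, where 0.0509%, 0.223%, and 0% of genes were. Dpp4 in the heart had the smallest unadjusted p among these (log2 fold change -0.74, SE 0.29, edgeR adjusted p = 1). All 8 B and T cell markers tested in the heart had a negative log2 fold change too, with a median of -1.985 and none called. The 9 listed markers summed to 5.133 and 37.47 TPM in WT replicates 1 and 2 of the heart, and to 4.476 and 8.285 TPM in KO. Dpp4 was at 13.66 and 13.77 CPM after TMM in WT replicates 1 and 2, and at 8.622 and 8.133 in KO. The part of B and T cells in the value of Dpp4 was not tested. The KO effect was also compared between the small intestine and the kidney. No member was called in this interaction test, in which 0% of 23159 genes were called and 953 had an unadjusted p under 0.05. Lct, Sis, Alpi, and Akp3 had at most 3 counts in any kidney library. Their KO effect in the kidney was therefore not measured, and the test cannot decide for them. The log2 difference of the effects was -0.15 (SE 0.70) for Anpep, 0.43 (SE 1.17) for Treh, and 0.16 (SE 2.36) for Mep1a. With DESeq2, 63 genes and no member were called.

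Across all 20 libraries, which share tissues and replicate numbers, the gene outside the set whose log2 CPM (with a prior count of 2) was most like that of a member is given with its Pearson r as a description. These were Tmprss15 for Akp3 (0.997), Clps for Sis (0.995), Gm30806 for Alpi (0.993), Golt1a for Mgam (0.986), Nat8f5 for Treh (0.984), 2200002D01Rik for Anpep (0.983), 2010110G14Rik for Lct (0.982), Pde9a for Enpep (0.981), Csnk1g3 for Dpp4 (0.978), and Kcnk1 for Mep1a (0.974). Among the members themselves, Sis with Alpi (0.977) and Lct with Akp3 (0.962) were the most alike, and Akp3 with Mep1a (0.159) and Lct with Mep1a (0.187) the least.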

How the data were processed

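The authors trimmed the reads of each library with cutadapt, mapped them with HISAT2 2.1.0, and counted them per gene with featureCounts 2.0.1 over the exons of Ensembl GRCm38.102, and deposited raw counts beside the length of the merged exons in base pairs. The methods name a human build for the mapping, whereas the labels name mm10, which the annotation of the table matches. The methods name options for strand and read pairs that the stored counting command does not hold, although the library kit keeps the strand. Where genes overlap on opposite strands, the gene of origin of reads from the shared bases can therefore not be told.

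Counts were used as deposited, from 15897446 to 44508197 a library. Each comparison was fitted over all genes kept by filterByExpr with edgeR 4.0.16 in R 4.3.3 (TMM, robust quasi-likelihood), with p-values adjusted over all genes tested. KO was compared to WT within a tissue (2 against 2 libraries), whereas the tissue contrasts and the interaction came from 1 fit of all 20 libraries in 10 groups. The replicate contrast used the 4 small intestine libraries. An SE was taken as the absolute log2 fold change over the root of its F statistic. TPM came from the deposited exon lengths. A floor of 3 counts a library was used for genes at 0, and covers counting error only. The results section of the paper calls both libraries of a group biological replicates. The methods do not say which animals they came from, so p-values measure the spread between these libraries. DESeq2 1.42.0, an adjusted p of 0.05, no filter, at least 10 counts in every library, other scalings (RLE size factors or total counts), the replicate number as a block, genotype as a term, 1 fit of all 20 libraries, 1 genotype or 1 replicate number only, and each replicate left out were tried as alternatives. The fits were tested on simulated data.

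All 10 enzymes are described. In the other lists, the 2 genes with the highest and the 2 with the lowest log2 fold change in a comparison could be named, beside a few fixed genes (Vil1, Alpl, Mep1b, Pdx1, Fabp6, Nsun6, and Cdx2). The leading genes of marker sums, and Phldb1 and Gm13561, which overlap members, were named after their values were seen. The enzymes and lists were chosen with earlier results of these data known. Promoters are those of RefSeq, GRCm38.p6. Other experiments of the study were not analysed here.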

Additional observations from a re-analysis of the deposited data

How the results depend on the processing

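The labels do not say that a shared replicate number marks a shared animal. The correlation of the replicate differences of WT and KO across genes was 0.478 in the small intestine, 0.247 in the heart, 0.071 in the kidney, 0.026 in the liver, and 0.012 in the spleen. With a replicate block, the log2 fold change of KO against WT turned from -0.32 to 0.46 for Alpi and from 0.10 to -0.16 for Enpep, and no member was called. With each library left out in turn it ran from -11.26 to 14.78 for Lct, -18.25 to 13.40 for Akp3, -2.46 to 3.47 for Alpi, -3.18 to 3.87 for Mep1a, -0.78 to 2.95 for Treh, -1.34 to 0.78 for Mgam, -0.0459 to 1.15 for Sis, -1.22 to 1.04 for Dpp4, -1.62 to 1.13 for Enpep, and -0.28 to 1.05 for Anpep. In the kidney the ranges were -0.29 to 1.49 for Mep1a, -0.48 to 0.46 for Mgam, -0.24 to 0.73 for Treh, -0.49 to 0.0641 for Dpp4, and -0.62 to 0.58 for Enpep, with 0 to 1 members called higher. All these ranges include both signs, whereas that of Anpep in the kidney, 0.26 to 1.10, does not. With at least 10 counts required in every library, Lct and Akp3 had no value in the small intestine. This filter left 3 members called higher in replicate 2 in place of 5, 3 called lower in the kidney than in the small intestine in place of 9, 3 called higher in the small intestine than in the liver, spleen, and heart in place of 10, and 3 called higher in the kidney than in those tissues in place of 6, because the others were not tested. One member, Mep1a, was called higher in the kidney than in the small intestine with no filter on low counts (1.04), with the replicate block (2.91), and with the replicate 2 libraries of the small intestine only (4.56). In the contrast by replicate number, 2 to 6 members were called higher and 1 to 4 lower when a library was left out, Treh lost its call at an adjusted p of 0.05 and with no filter, and Anpep was called lower with DESeq2 and with no filter. Among the log2 fold changes of single members that were tallied, 574 kept direction and call, 24 turned, 13 lost a call, and 8 gained one. This tally does not hold every member in the tissue comparisons. The calls lost in these when a library of the small intestine or kidney was left out are not in it. Except for the filter, the causes were not tested.

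Counts over all genes moved more. KO against WT gave 0 genes in the small intestine and 51 with DESeq2, and 8 in the liver, with 122 with no filter, 20 with the block, 53 with DESeq2, 0 in the fit of all 20 libraries, and 2 to 205 with a library left out. In the spleen 42 were called, with 0 at an adjusted p of 0.05, 313 with no filter, 105 with at least 10 counts, 209 with DESeq2, 0 in the fit of all 20 libraries, and 0 to 371 with a library left out. In the heart 0 were called, with 13 with no filter, 6 with the block, 3 with DESeq2, and 0 to 22 with a library left out. In the kidney 0 were called, and 1 to 2938 with a library left out, the highest without WT replicate 1, and 444 without WT replicate 2. The replicate contrast called 1521, with 881 at an adjusted p of 0.05, 2387 with DESeq2, and 402 to 2360 with a library left out. The interaction called 0, with 293 with no filter, 63 with DESeq2, and 0 to 470 with a library left out. With at least 10 counts, kidney against small intestine fell from 10595 to 4582, the small intestine against the 3 tissues from 9473 to 4226, and the kidney against these from 7271 to 2719.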

Other observations

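Traces of the enzymes, of ileal genes, and of kidney genes were counted in some libraries of tissues whose other libraries had fewer or none. In the spleen, the replicate 1 libraries of WT and KO had 21 and 26 counts of Sis and 8 and 83 counts of Mep1a, and both replicate 2 libraries had 0 counts of each. The KO replicate 1 library of the spleen also held 6.59 TPM of the 6 distal nephron markers of the kidney, led by Umod, as compared to 0.777 to 0.815 TPM in the other 3. Fabp6, the bile acid binding protein of the ileum, had 104 and 218 counts in the same replicate 1 libraries (16.6 and 37.5 TPM) and 0 and 2 counts in replicate 2. Akp3 had 37 counts and Alpi 10 counts in WT replicate 2 of the heart, and 0 counts in the other 3 heart libraries.

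The other cell type markers of the small intestine differed between the libraries as well, and none of the lists named here had a gene called there by genotype or by replicate number. The 9 B and T cell markers summed to 943.9 and 1947 TPM in WT replicates 1 and 2 and to 186.2 and 1759 TPM in KO replicates 1 and 2, led by the plasma cell gene Jchain in each. The 7 crypt markers summed to 381.9 TPM in WT replicate 1, 146.7 TPM in KO replicate 1, and 85.7 and 96.0 TPM in replicate 2 of WT and KO, led by the stem cell gene Olfm4. The 8 myeloid markers summed to between 82.7 and 393.1 TPM, led by Lyz2, and the 9 pancreatic acinar markers to between 8.46 and 16.03 TPM, led by Cela1.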
